A study of Mus musculus with 65 samples.

Results

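The genes described are 32 that make, sense, move and modify cholesterol in mouse myeloid cells. They comprise 7 genes of the mevalonate and isoprenoid steps, 11 of the steps from squalene to cholesterol, 5 that control the sterol-sensing transcription factors called SREBPs, 2 that export taken-up cholesterol from endosomes, 5 of the LXR receptors and their efflux and ubiquitin ligase targets, and 2 that hydroxylate or esterify sterol. They were chosen by symbol from the deposited table of gene read counts, which holds 23755 symbols. All 32 were found, and all 32 passed the filter on low counts in each of the 3 experiments. The series asked how transposable elements, the repeated mobile sequences of the genome, take part in innate sensing, and polyA RNA of 65 libraries in 19 groups was sequenced. One experiment compared unstimulated C57BL/6 bone marrow derived dendritic cells (BMDCs) that were wild type (WT), Suv39h1KO, IfnarKO or doubly deficient, with 3 libraries each. Another compared C57BL/6 BMDCs labelled WT, MyD88KO and TrifKO at 0, 2 and 4 h of lipopolysaccharide (LPS, 100 ng/mL), with 6, 5 and 6 WT libraries at those times and 3 libraries in each knockout group. The remaining experiment compared RAW264.7 cells, a BALB/c macrophage line, carrying gRNA_1, gRNA_2 or gRNA_Ctrl at 0 and 2 h, with 3 libraries each. Suv39h1 encodes a histone H3K9 methyltransferase, Ifnar the type I interferon receptor, and MyD88 and TRIF the adaptors through which the LPS receptor TLR4 signals. The deleted parts of the genes, the guide targets, and the age and sex of the mice are not given in the sources used here, the LPS dose is stated for BMDCs only, and the sample titles of the RAW264.7 libraries call them DC.

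Cholesterol is built from acetyl-CoA through mevalonate, the isoprenoids and squalene. When membranes hold little sterol, the escort protein SCAP carries SREBPs out of the endoplasmic reticulum to be cut into active factors, and INSIG proteins hold SCAP back when sterol is plentiful. Oxysterols, including the product of CH25H in activated myeloid cells, restrain SREBP processing and are ligands of the LXR receptors, which induce the exporters ABCA1 and ABCG1 and the ubiquitin ligase MYLIP.

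RefSeq's table of start-site sequences (build GRCm38.p6, which carries the mm10 coordinates) held windows for 27 of the 32 members. Fdps, Fdft1, Sqle, Npc1 and Abcg1 had none in it. Each window ran from 250 bases before the start to 50 after, and words were searched on both strands. CCAAT, the word bound by NF-Y, a common partner of SREBP, was in the windows of 21 of 27 members (77.8%), against 41.1% of all 27025 symbols with a window. TCACNCCAC, a form of the sterol response element, was in 1 of 27 (3.7%), against 1.44% of all symbols. The interferon response word, GAAA followed after any 2 bases by GAAA, was in 1 of 27 (3.7%, in Ebp), against 3.99% of all symbols, and the LXR word, AGGTCA repeated after any 4 bases, was in 0 of 27, against 0.0148%. These matches describe letters, not bound sites. Only exact words were searched, so the absence of the LXR word does not show that looser forms of it are absent. The 250 bases before the start are shown for 4 members that rose with LPS in WT BMDCs and in RAW264.7 cells, and for the exporter gene Abca1 and the hydroxylase gene Ch25h, on which the comparisons of guides and of cells labelled TrifKO turn. Capitals mark CCAAT on either strand (as ATTGG on the other) and the sterol response word, and the sequences read 5′ to 3′ on each gene's strand.
Hmgcs1 (chr13:119690101-119690350, plus strand): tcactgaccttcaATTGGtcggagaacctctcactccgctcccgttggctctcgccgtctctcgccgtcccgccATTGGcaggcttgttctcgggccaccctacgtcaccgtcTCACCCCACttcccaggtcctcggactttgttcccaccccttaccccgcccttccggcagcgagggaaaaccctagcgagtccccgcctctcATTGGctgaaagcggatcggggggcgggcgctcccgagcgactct
Idi1 (chr13:8885356-8885605, plus strand): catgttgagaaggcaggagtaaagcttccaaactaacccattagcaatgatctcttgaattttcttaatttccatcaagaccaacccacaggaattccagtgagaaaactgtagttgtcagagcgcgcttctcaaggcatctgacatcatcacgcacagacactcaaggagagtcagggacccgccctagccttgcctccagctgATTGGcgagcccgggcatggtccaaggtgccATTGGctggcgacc
Hsd17b7 (chr1:169969206-169969455, minus strand): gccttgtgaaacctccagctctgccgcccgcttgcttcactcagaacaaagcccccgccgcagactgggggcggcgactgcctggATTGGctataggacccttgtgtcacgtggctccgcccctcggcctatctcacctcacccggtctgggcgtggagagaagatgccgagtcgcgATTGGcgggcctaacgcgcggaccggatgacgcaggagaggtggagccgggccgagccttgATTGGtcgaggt
Insig1 (chr5:28071162-28071411, plus strand): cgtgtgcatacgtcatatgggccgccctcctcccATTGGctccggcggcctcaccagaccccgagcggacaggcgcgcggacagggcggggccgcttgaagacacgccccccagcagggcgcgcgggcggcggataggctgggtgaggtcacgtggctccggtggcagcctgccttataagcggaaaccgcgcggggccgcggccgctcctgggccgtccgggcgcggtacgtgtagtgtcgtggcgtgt
Abca1 (chr4:53159896-53160145, minus strand): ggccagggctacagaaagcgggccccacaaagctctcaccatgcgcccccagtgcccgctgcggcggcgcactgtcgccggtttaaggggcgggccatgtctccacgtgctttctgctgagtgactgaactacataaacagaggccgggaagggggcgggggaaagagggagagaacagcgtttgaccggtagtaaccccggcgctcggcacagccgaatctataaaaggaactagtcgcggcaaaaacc
Ch25h (chr19:34475149-34475398, minus strand): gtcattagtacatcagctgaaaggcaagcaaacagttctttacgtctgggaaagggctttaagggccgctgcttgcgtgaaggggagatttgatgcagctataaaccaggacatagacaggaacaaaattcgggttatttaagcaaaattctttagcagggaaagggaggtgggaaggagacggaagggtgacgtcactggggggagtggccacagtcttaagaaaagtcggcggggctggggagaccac
The Hmgcs1 stretch held the sterol response word 137 bases before the start, and the stretches of Abca1 and Ch25h held none of the marked words.

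Gene counts summed to 36.9 to 95.3 M (1 M being 1e+06 counts) per library, with a median of 54.7 M. Among the members the smallest count was 0, for Ch25h in RAW264.7 cells. All 8 dendritic cell markers were detected in BMDCs (summed 10300 to 25000 counts per 1e+06 mapped to genes, CPM), whereas Flt3, H2-Ab1, Ccr7, Batf3 and Cd209a stayed below 1 CPM in every RAW264.7 library. Macrophage markers summed to 3580 to 18400 CPM in BMDCs and granulocyte markers to 66.6 to 1180 CPM, and the part of these cells in the results was not tested. Suv39h1 was at 0.11 to 0.371 CPM in the cells labelled as lacking it against 36.9 to 64.6 CPM in the others. Myd88 was at 46.2 to 48.6 CPM in unstimulated MyD88KO libraries against 72.25 to 80.7 in WT, and Ifnar1 at 122 to 161 CPM in the groups lacking the receptor against 173 to 218 in the others. Ticam1, which encodes TRIF, does not bear out the TrifKO label in most libraries. It was at 29.8 to 50.25 CPM in 7 of the 9 libraries labelled TrifKO, against 25.02 to 58.4 CPM in WT libraries, and at 2.94 and 2.46 CPM in cohort 3 at 2 and 4 h. Since the deleted part is not given, retained reads do not settle the genotype, and these cells are called labelled TrifKO throughout. Within cohorts labelled TrifKO, Xist was present at some times and near 0 at others (0, 0 and 1233 CPM at 0, 2 and 4 h in cohort 1). Among WT and MyD88KO libraries of the LPS experiment, Xist had 0 to 3 counts in every cohort 3 library and 24522 to 67116 in cohorts 1 and 2. Ebp and Nsdhl lie on the X chromosome, and the part of this in their values was not tested. WT libraries came in a set numbered 1 to 30, together with MyD88KO, and a set numbered 33 to 50, together with the libraries labelled TrifKO, and some of them share a title and cohort number across the sets.

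In WT BMDCs, LPS raised Ch25h, Hmgcs1 and Idi1 of the mevalonate and isoprenoid steps, Hsd17b7 and the SREBP retention gene Insig1 by 2 h. It lowered the last-step reductase gene Dhcr7, the exporter gene Abcg1 and the endosomal gene Npc1. At 2 h 11 members were higher and 5 lower (edgeR quasi-likelihood test, adjusted p below 0.05 over all genes), against 21.3% and 24.6% of all 14475 genes tested. At 4 h 14 members were higher and 8 lower, against 30% and 35.1% of all genes. The median log2 fold change of the members was 0.12 at 2 h and 0.22 at 4 h, beside -0.045 and -0.074 over all genes. Because so many genes passed in both directions, nothing particular to the members is read from these counts, and the description rests on single members. In bulk libraries, fewer cells of a type and less RNA per cell cannot be told apart. Scaling by library totals without TMM moved the median of all genes to -0.43 at 2 h and -0.72 at 4 h, and the member split to 4 higher and 12 lower at 2 h and to 5 higher and 15 lower at 4 h. The directions below are relative to the TMM scaling.

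**Figure D1:**
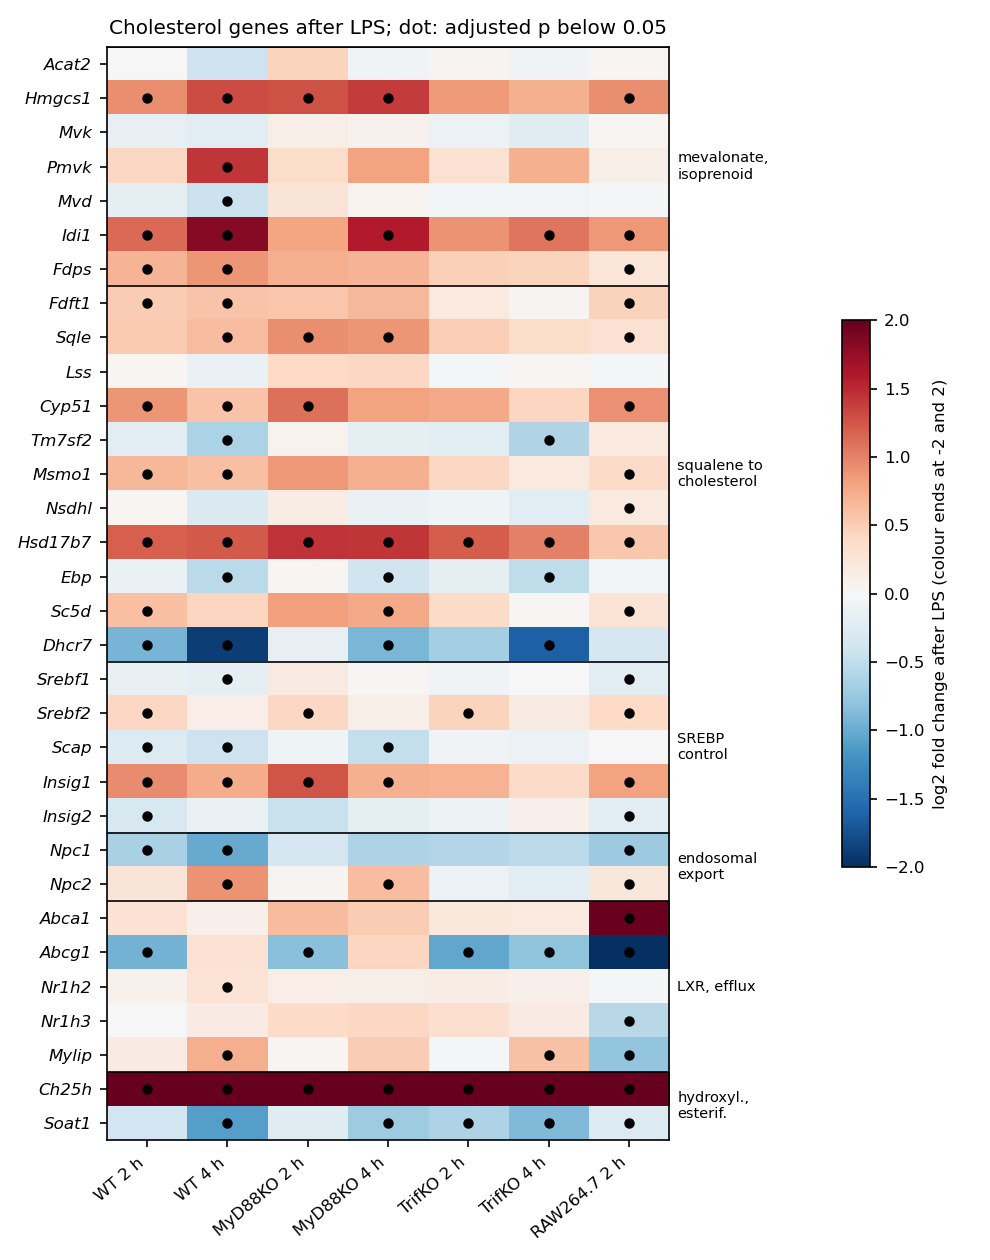
Heat map of the log2 fold change of each member (rows, ordered by role) in 7 LPS responses (columns), with colour ends at -2 and 2 and a dot where the adjusted p was below 0.05. Ch25h is at the upper end of the scale in every BMDC column, and Dhcr7 is the most reduced member of the WT, MyD88KO and TrifKO-labelled columns at 4 h.

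Of the 7 genes of the mevalonate and isoprenoid steps, 3 were higher and 0 lower at 2 h, and 4 were higher and 1 lower at 4 h. Hmgcs1, whose enzyme makes HMG-CoA, had CPM of 95.3, 148 and 164 (lowest, median and highest) at 0 h, 356, 187, 208, 351 and 253 at 2 h and 184, 326 and 672 at 4 h. No stimulated library was as low as the highest unstimulated one, and Hmgcs1 rose by 0.93 ± 0.25 (log2 fold change ± SE, adjusted p = 0.00312) at 2 h and 1.30 ± 0.25 (adjusted p = 3.35e-05) at 4 h. Idi1, the isopentenyl diphosphate isomerase, had 57.9, 67.3 and 99.4 CPM at 0 h, 126.5, 145, 148, 249 and 113 at 2 h and 183, 208 and 495 at 4 h. Its groups at 0 h and at either later time did not overlap, and it rose 2.195-fold at 2 h and 3.55-fold at 4 h (adjusted p = 0.00162 and 1.54e-06). Pmvk, the phosphomevalonate kinase, had 34.7, 46.3 and 63.5 CPM at 0 h and 59.05, 46.8, 53.45, 101 and 55.7 at 2 h, which overlapped, and 79.3, 112 and 231 at 4 h, which did not overlap 0 h (log2 fold change 1.43 ± 0.26 SE, adjusted p = 2.1e-05). The highest 2 h value of Pmvk, 101 CPM, and the highest value of Idi1 at each of the 3 times came from cohort 3 libraries of the set numbered 1 to 30. Fdps, which makes farnesyl diphosphate, rose by 0.69 and 0.89 on the log2 scale, with overlapping groups. Mvd, the mevalonate diphosphate decarboxylase, was lower at 4 h (-0.435 ± 0.18 SE, adjusted p = 0.0364), while Mvk, the mevalonate kinase, and Acat2, an acetyl-CoA acetyltransferase, passed at neither time. Acat2 has a close copy, Acat3, in the same table, and how reads that match both were counted is not given, so its values are uncertain.

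Of the 11 genes from squalene to cholesterol, 5 were higher and 1 lower at 2 h, and 5 were higher and 3 lower at 4 h. Hsd17b7, a sterol ketoreductase, had 9.01, 13.1 and 18.3 CPM at 0 h, 31.6, 21.7, 24.6, 43.9 and 31.9 at 2 h and 12.3, 34.02 and 53.8 at 4 h. All 5 libraries at 2 h exceeded all 6 at 0 h, while the lowest 4 h library lay within the 0 h range. Hsd17b7 rose by 1.20 ± 0.26 SE at 2 h and 1.22 ± 0.25 SE at 4 h on the log2 scale (adjusted p = 0.000284 and 8.04e-05). Cyp51, the lanosterol demethylase, had 41.6, 71.3 and 82.6 CPM at 0 h, 159.6, 82.3, 87.3, 206 and 95.3 at 2 h and 55.1, 96.3 and 177 at 4 h, and rose by 0.89 and 0.565 on the log2 scale with overlap at 4 h and, at its edge, at 2 h. Sqle, the squalene epoxidase, had 42.3, 60.1 and 63.1 CPM at 0 h, 98.9, 53.3, 58.05, 123.5 and 78.3 at 2 h and 47.9, 90.1 and 142 at 4 h. Its groups overlapped, and it passed the test at 4 h (0.61 ± 0.22 SE, adjusted p = 0.0167) but not at 2 h (0.53 ± 0.23 SE, adjusted p = 0.063). Fdft1, the squalene synthase, and the methyl oxidase gene Msmo1 rose at both times by 0.51 to 0.67, and the desaturase gene Sc5d at 2 h by 0.60, on the log2 scale. Dhcr7, the reductase of the last step, moved the other way. Its CPM were 8.8, 14.6 and 18.4 at 0 h, 6.92, 4.92, 7.42, 11.9 and 5.755 at 2 h and 2.62, 3.35 and 5.44 at 4 h. Every 4 h library was below every 0 h library, and Dhcr7 was at 0.5225 of its 0 h level at 2 h and 0.271 at 4 h (adjusted p = 0.000427 and 2.55e-09). The sterol reductase gene Tm7sf2 had 8.91, 11.4 and 12.4 CPM at 0 h, 11.6, 9.09, 9.425, 9.55 and 8.25 at 2 h and 6.15, 6.84 and 8.798 at 4 h. Ebp, a sterol isomerase gene, had 31.3, 35.9 and 39.7 CPM at 0 h, 39.5, 29.5, 26.4, 37.5 and 30.4 at 2 h and 20.8, 25.4 and 27.9 at 4 h. Tm7sf2 and Ebp were both lower at 4 h without overlap (log2 fold changes -0.63 and -0.54). Lss, the lanosterol synthase, and Nsdhl, a sterol dehydrogenase, passed at neither time.

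Of the 5 genes of SREBP control, 2 were higher and 2 lower at 2 h, and 1 was higher and 2 lower at 4 h. Insig1, which retains SCAP in the endoplasmic reticulum and is itself an SREBP target, had 32.6, 46.6 and 63.8 CPM at 0 h, 126, 65.5, 71.99, 110.4 and 85.6 at 2 h and 51.65, 85.4 and 105 at 4 h. Its 2 h libraries all exceeded the 0 h libraries (0.94 ± 0.195 SE, adjusted p = 0.000207), and its 4 h libraries overlapped them (0.75 ± 0.19 SE, adjusted p = 0.000899). Insig2, its relative, was lower at 2 h, with 20.3, 22 and 27.7 CPM at 0 h, 20.3, 18.8, 17.7, 16.5 and 17.8 at 2 h and 16.9, 20.6 and 24.9 at 4 h, a log2 fold change of -0.31 at 2 h, its highest 2 h library level with its lowest 0 h library. Srebf2, the gene of the SREBP that drives sterol synthesis, had 234.8, 261.5 and 318 CPM at 0 h, 322, 316, 333, 424 and 355.5 at 2 h and 216, 298 and 361 at 4 h. It rose at 2 h (0.41 ± 0.11 SE, adjusted p = 0.00246) and did not differ beyond its error at 4 h (0.13 ± 0.10 SE). Srebf1, whose products drive fatty acid synthesis, had 46.4, 48.01 and 51.02 CPM at 0 h, 41.7, 44.98, 44.3, 46.3 and 41.7 at 2 h and 39.8, 40.6 and 48.2 at 4 h. Its decrease was small and passed at 4 h only (-0.19 ± 0.06 SE, adjusted p = 0.00731, against 0.0593 at 2 h). Scap was lower at both times (-0.27 and -0.41), with all 4 h libraries below all 0 h libraries.

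The endosomal exporters moved apart. Npc1, the membrane protein that passes cholesterol out of late endosomes, had 112, 135 and 165 CPM at 0 h, 86.2, 107, 103, 75.3 and 66.1 at 2 h and 45.7, 71.6 and 82.65 at 4 h. Neither stimulated group overlapped 0 h, and Npc1 fell by 0.64 at 2 h and 1.00 at 4 h on the log2 scale (adjusted p = 0.0062 and 1.8e-05). Npc2, the soluble carrier that hands sterol to NPC1, had 465, 528 and 635 CPM at 0 h, 615, 794, 766, 514 and 511 at 2 h and 785, 945 and 1245 at 4 h. Its 4 h libraries were all above its 0 h libraries (0.90 ± 0.14 SE, adjusted p = 1.63e-06), and its change at 2 h did not pass (adjusted p = 0.151).

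Among the 5 genes of the LXR arm, 0 were higher and 1 lower at 2 h, and 2 were higher and 0 lower at 4 h. Abcg1, a cholesterol exporter to lipoproteins, had 82.3, 112 and 141 CPM at 0 h, 40.6, 69.9, 83.5, 47.2 and 50.3 at 2 h and 101, 136 and 188 at 4 h. It was lowered at 2 h to 0.52 of its 0 h level (adjusted p = 0.000216), with 1 of 5 libraries reaching the 0 h range, and at 4 h it overlapped 0 h (0.30 ± 0.18 SE, adjusted p = 0.151). Abca1, the exporter to lipid-poor apolipoprotein, had 59.4, 104.5 and 165 CPM at 0 h, 112, 218, 212, 56.8 and 98.5 at 2 h and 52.02, 134 and 169.5 at 4 h. These libraries spread so widely that the 95% interval of its log2 fold change ran from -0.67 to 1.25 at 2 h and -0.81 to 1.03 at 4 h. Mylip, which encodes a ubiquitin ligase, had 24.2, 29.7 and 32.95 CPM at 0 h, 24.03, 36.97, 32.6, 42.98 and 26.5 at 2 h and 35.9, 46.95 and 63.1 at 4 h. It overlapped 0 h at 2 h and stood above it without overlap at 4 h, a rise of 0.72 ± 0.16 SE. Nr1h2, the gene of LXR beta, rose by 0.27 at 4 h without overlap, and Nr1h3, the gene of LXR alpha, passed at neither time.

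Ch25h, which makes the oxysterol that restrains SREBP processing, showed the largest change of any member. Its CPM were 0.673, 1.33 and 3.96 at 0 h, 27.7, 67.45, 64.8, 25.4 and 17.2 at 2 h and 45.01, 63.6 and 168.5 at 4 h. Every stimulated library stood above every unstimulated one, and Ch25h rose 21.5-fold at 2 h and 48.9-fold at 4 h (adjusted p = 7.99e-08 and 5.71e-10). Soat1, which esterifies cholesterol for storage, had 152, 187 and 249.9 CPM at 0 h, 137, 169, 179, 128 and 137 at 2 h and 80.5, 92.1 and 99.6 at 4 h. It did not pass at 2 h (adjusted p = 0.0634) and was at 0.465 of its 0 h level at 4 h, without overlap.

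**Figure D2:**
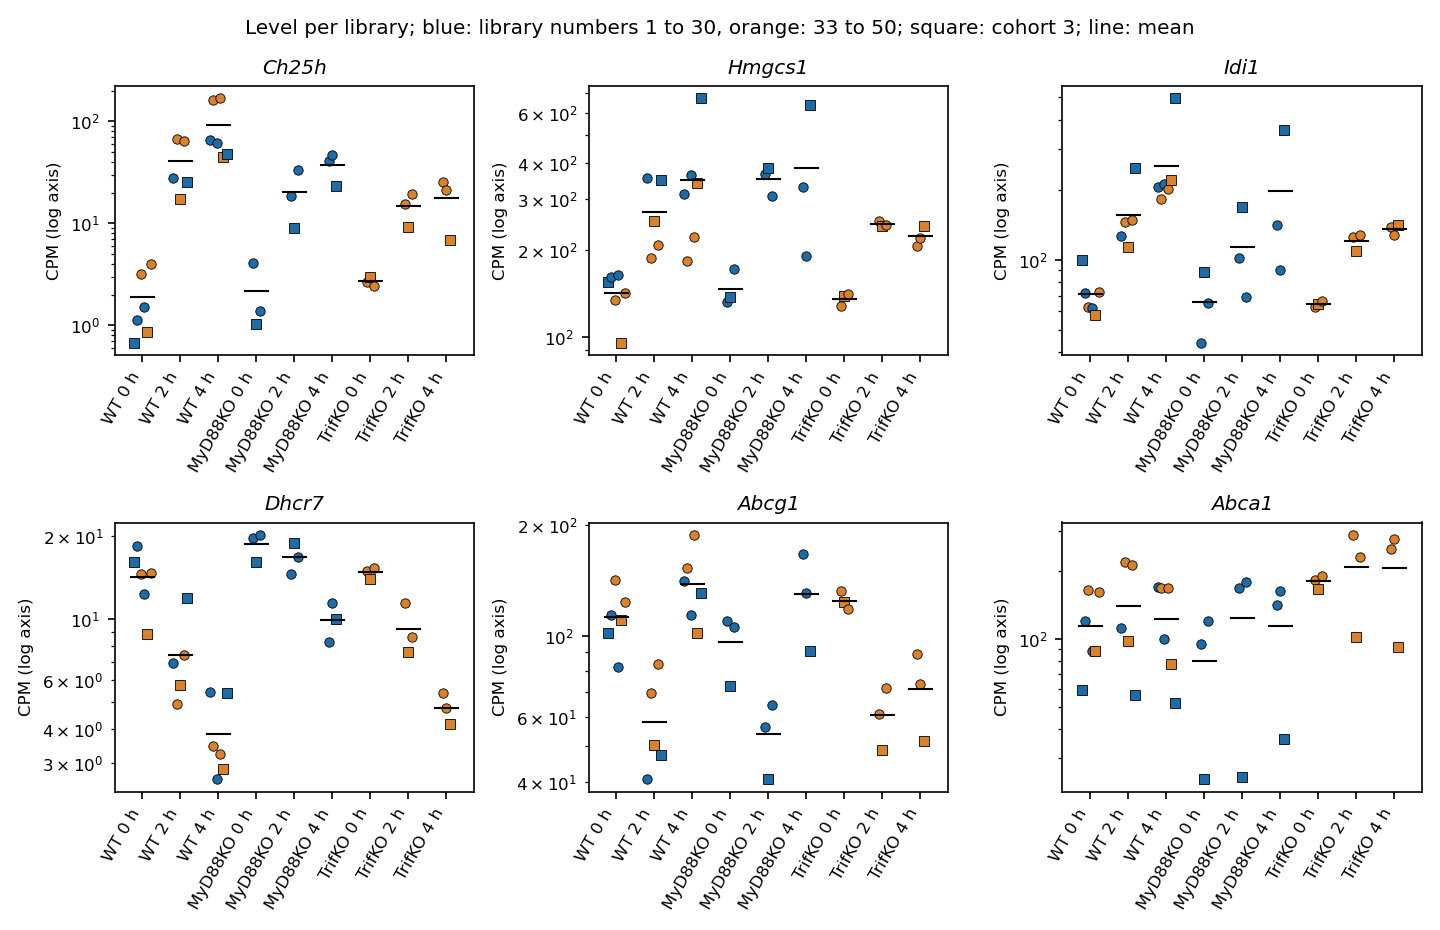
CPM (log axis) of Ch25h, Hmgcs1, Idi1, Dhcr7, Abcg1 and Abca1 in each BMDC library of the LPS experiment, with blue points for libraries numbered 1 to 30, orange points for 33 to 50, squares for cohort 3 and a line at the group mean. Ch25h and Idi1 separate stimulated from unstimulated WT libraries, and cohort 3 squares are the highest points of Idi1 in the WT groups.

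Between 2 and 4 h in WT cells, 5 members rose and 5 fell, against 18.6% and 17.1% of all genes. Abcg1 rose 2.37-fold from 2 to 4 h (adjusted p = 1.38e-05), and no 2 h library reached the lowest 4 h library. Pmvk rose 2.02-fold, Npc2 by 0.64, Mylip by 0.565 and Nr1h2 by 0.18 on the log2 scale. Dhcr7 fell by 0.95 and Soat1 by 0.73 on the log2 scale, and Tm7sf2 (-0.42), Ebp (-0.40) and Srebf2 (-0.27) were lower as well. Of the 18 synthesis genes, Pmvk alone passed as higher at 4 h than at 2 h. Same-numbered WT libraries of the set numbered 33 to 50 deviated together, and a fit with set and cohort as a replicate block called 17 members, 7 higher and 10 lower, all 10 named above among them. It added rises of Ch25h (1.13) and Idi1 (0.74) and falls of Npc1, Nsdhl, Cyp51, Mvd and Acat2 (-0.28 to -0.425). With library totals the split was 3 higher and 10 lower.

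The LPS responses of WT cells were also fitted in each library set. Shares of all genes in these fits are not given, so nothing particular to the members is read from the counts. In the set numbered 1 to 30, 11 members were higher and 1 lower at 2 h, and 15 higher and 6 lower at 4 h. In the set numbered 33 to 50, 7 were higher and 4 lower at 2 h, and 9 higher and 11 lower at 4 h, and the rises of Cyp51, Msmo1, Sqle and Fdft1 at 4 h did not pass there (adjusted p = 0.403, 0.434, 0.264 and 0.13). The fall of Npc1 at 2 h passed in neither set alone (-0.667 and -0.652, adjusted p = 0.0863 and 0.0779), nor with the WT libraries of a cohort summed (-0.58, adjusted p = 0.0779). That of Insig2 did not pass in these 3 fits either (adjusted p = 0.272, 0.137 and 0.143). In the set numbered 1 to 30, Dhcr7 (-0.725, adjusted p = 0.0574), Scap and Fdft1 also did not pass at 2 h, and in the set numbered 33 to 50 neither did Fdft1, Fdps, Msmo1 and Sc5d. At 4 h Mvd and Srebf1 did not pass in the first set, and Mylip (adjusted p = 0.0523) in the second. Between 2 and 4 h the sets gave 2 higher and 3 lower, and 3 higher and 5 lower. Without the 2 h library numbered 13 or the 0 h library numbered 35, both of cohort 3, Fdps, Fdft1, Msmo1, Sc5d and Insig2 no longer passed at 2 h. Without the 2 h library numbered 3 the first 4 of these did not pass, and Fdps, Fdft1 or Insig2 also lost the call without 1 of the libraries numbered 5, 33, 34, 37 and 38. Without the cohort 3 library numbered 14, Fdft1, Sqle, Cyp51 and Msmo1 no longer passed at 4 h. Cyp51, Msmo1 or Mvd lost the 4 h call in the absence of each of the other 11 libraries.

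Other genes of sterol metabolism and of fatty acid synthesis were read from lists that, like the members, were drawn up with earlier results of these data known. Of 27 further sterol genes, 25 were tested, of which 5 were higher and 7 lower at 2 h, and 4 higher and 10 lower at 4 h. Of all genes, 21.3% were higher and 24.6% lower at 2 h, and 30% and 35.1% at 4 h. Cyp27a1, a sterol hydroxylase gene (-1.72 at 4 h), and Nceh1, a cholesteryl ester hydrolase gene (-1.94), were lower. Among 15 fatty acid genes, 1 was higher and 3 lower at 2 h, and 2 higher and 7 lower at 4 h, including Fads1 (-2.72), Scd2 (-1.92) and Fasn (-0.71).

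In MyD88KO BMDCs, which keep the TRIF branch of TLR4 signalling, Ch25h, Hmgcs1 and Hsd17b7 rose at both times, and Dhcr7 fell at 4 h. Sqle and Insig1 also passed at both times. In most fits with 1 library left out, Sqle lost the call at both times and Insig1 at 4 h. At 2 h 7 members were higher and 1 lower, against 8.83% and 7.24% of all genes, and at 4 h 8 were higher and 4 lower, against 17.1% and 17%. The members' median was 0.37 at 2 h and 0.43 at 4 h, beside -0.017 and -0.054 over all genes. Ch25h had 1.37, 4.05 and 1.04 CPM at 0 h (cohorts 1, 2 and 3), 18.7, 33.45 and 9.095 at 2 h and 40.6, 47.04 and 23.4 at 4 h. The times did not overlap with 0 h, and Ch25h rose by 3.26 ± 0.71 SE and 4.12 ± 0.74 SE on the log2 scale (adjusted p = 0.00157 and 7.4e-05). Without the 0 h library of cohort 2, the highest of its group, these became 4.08 and 4.94.

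Hmgcs1 had 172, 132 and 137 CPM at 0 h in MyD88KO cells, 368, 308 and 384 at 2 h and 331.5, 190.3 and 638 at 4 h, all stimulated libraries lying above all unstimulated ones. It rose by 1.27 ± 0.35 SE at 2 h and 1.40 ± 0.35 SE at 4 h. Idi1 had 65.1, 43.9 and 88.3 CPM at 0 h, 102, 69.25 and 169 at 2 h and 142, 90.5 and 361 at 4 h. The third cohort was the highest at each time, the 2 h libraries overlapped 0 h (adjusted p = 0.189), and the rise at 4 h was 1.59 ± 0.39 SE. Hsd17b7 had 17.25, 13.02 and 14.2 CPM at 0 h, 45.4, 34.8 and 41.2 at 2 h and 34.3, 25.05 and 60.9 at 4 h, and rose without overlap (1.45 and 1.43). Insig1 had 67.99, 53.4 and 48.55 CPM at 0 h, 167, 112 and 128 at 2 h and 112, 64.3 and 103 at 4 h. Its rise was larger at 2 h (1.26, no overlap) than at 4 h (0.71, overlap), a difference that was not tested. Sqle had 62.03, 61.8 and 61.7 CPM at 0 h, 107, 99.3 and 148.5 at 2 h and 89.6, 76.8 and 176 at 4 h, again with cohort 3 the highest after LPS (0.93 and 0.89). Both SREBP genes were near their 0 h level at 4 h. Srebf2 had 303, 280.2 and 351 CPM at 0 h, 403, 369.5 and 474 at 2 h and 346, 289 and 378 at 4 h, and rose at 2 h without overlap (0.42, adjusted p = 0.0486). Srebf1 had 51.7, 51.9 and 50.2 CPM at 0 h, 60.8, 58.4 and 55.1 at 2 h and 59.9, 52 and 44.1 at 4 h and did not pass (adjusted p = 0.156 and 0.885). Npc2 rose at 4 h (0.62), from 488, 523 and 375 CPM to 769.6, 711 and 656.

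Abcg1 was lower in MyD88KO cells at 2 h, with 105, 109.8 and 73.03 CPM at 0 h, 56.4, 64.7 and 40.7 at 2 h and 167, 130.5 and 91.02 at 4 h. The 2 h libraries lay below the 0 h libraries of all cohorts (-0.83 ± 0.26 SE, adjusted p = 0.0269). Dhcr7 had 20.2, 19.7 and 16.03 CPM at 0 h, 14.6, 16.7 and 18.9 at 2 h and 8.26, 11.4 and 9.98 at 4 h. It overlapped 0 h at 2 h and was lower without overlap at 4 h (-0.92 ± 0.275 SE, adjusted p = 0.0106). The esterification gene Soat1, the escort gene Scap and the isomerase gene Ebp were lower at 4 h too, Scap and Ebp without overlap. Soat1 had 207, 258 and 150.5 CPM at 0 h, 174, 220.1 and 125 at 2 h and 111, 167 and 97.45 at 4 h (-0.71). Scap had 52.9, 46.8 and 56.9, 49.1, 46.2 and 52.7, and then 38.65, 38.7 and 35.6 CPM at these times (-0.47). Ebp had 39.1, 39.2 and 41.2, 39.2, 39.9 and 43.7, and then 30.2, 30.95 and 29.4 CPM (-0.40). Of the 25 further sterol genes tested, 3 were higher and 2 lower at 2 h, and 5 higher and 2 lower at 4 h. The shares of all genes were 8.83% and 7.24% at 2 h, and 17.1% and 17% at 4 h. Abca1 had 120.3, 94.9 and 24.03 CPM at 0 h, 168, 178 and 24.7 at 2 h and 141, 164 and 36.2 at 4 h, with cohort 3 far below the others at all times, and did not pass. MyD88KO libraries with the same cohort number deviated together, and a fit with cohort and set as a block called 14 members at 2 h and 19 at 4 h. The block added rises of Fdft1, Fdps, Idi1, Msmo1 and Sc5d and a fall of Insig2 at 2 h. It added rises of Cyp51, Fdft1, Fdps, Msmo1, Mylip and Pmvk and a fall of Npc1 at 4 h. Without the block, leaving out the 0 h library of cohort 1 or 2, or the 2 h library of cohort 1 or 3, left 4 calls at 2 h. Of 6 such fits at 2 h, Sqle and Cyp51 each kept the call in 1, and Srebf2 and Abcg1 each in 2. Of the 6 fits at 4 h, Sqle, Insig1 and Sc5d each kept it in 2. Leaving out the 4 h library of cohort 3 left 6 calls at 4 h (Idi1 then 0.82, adjusted p = 0.101), that of cohort 1 left 7 and that of cohort 2 left 18, while the 0 h library of cohort 2 or 3 left 8. With library totals the splits were 4 higher and 2 lower at 2 h, and 4 higher and 8 lower at 4 h.

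In BMDCs labelled TrifKO, 7 of whose 9 libraries held Ticam1 in the WT range, Ch25h and Hsd17b7 rose and Abcg1 and Soat1 fell at both times, and Dhcr7 fell at 4 h. At 2 h 3 were higher and 2 lower, against 11.3% and 9.41% of all genes, and at 4 h 4 were higher and 5 lower, against 14.4% and 11.5%. The members' median was 0.10 at 2 h and 0.075 at 4 h, beside -0.016 and 0.003 over all genes. Ch25h had 2.445, 2.67 and 3.002 CPM at 0 h (cohorts 1, 2 and 3), 15.5, 19.5 and 9.301 at 2 h and 25.25, 21.2 and 6.86 at 4 h. Stimulated libraries all exceeded unstimulated ones, with cohort 3 the lowest after LPS, and Ch25h rose by 2.45 ± 0.69 SE and 2.72 ± 0.70 SE (adjusted p = 0.0106 and 0.00448). Hsd17b7 had 12.8, 13.2 and 12.9 CPM at 0 h, 31.3, 28.98 and 29.7 at 2 h and 26.2, 25.5 and 26.8 at 4 h, a rise of 1.21 and 1.01 without overlap. Idi1 had 66.3, 62.9 and 64.7 CPM at 0 h, 125, 128 and 109 at 2 h and 138, 128 and 141 at 4 h. Although its groups did not overlap at either time, Idi1 passed at 4 h only (1.07 ± 0.39 SE, adjusted p = 0.0418). Hmgcs1 had 141, 128 and 138 CPM at 0 h, 252, 243.5 and 243 at 2 h and 206, 221 and 242 at 4 h, also without overlap, and its log2 fold changes of 0.86 ± 0.34 SE and 0.72 ± 0.34 SE did not pass (adjusted p = 0.0761 and 0.128).

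Insig1 in cells labelled TrifKO had 46.6, 39.9 and 47.3 CPM at 0 h, 73.8, 69.1 and 72.8 at 2 h and 53.4, 63.1 and 57.4 at 4 h and did not pass (adjusted p = 0.0631 and 0.319). Srebf2 had 243, 223 and 228.5 CPM at 0 h, 317, 317 and 316 at 2 h and 269.5, 249 and 266 at 4 h, and rose at 2 h (0.45, adjusted p = 0.025). Srebf1 stayed between 45.5 and 49.2 CPM in all 9 libraries labelled TrifKO and did not pass. Sqle had 58.9, 56.96 and 62.2 CPM at 0 h, 79.7, 78 and 93.7 at 2 h and 66.5, 68.65 and 93.3 at 4 h, without overlap with 0 h, and did not pass (adjusted p = 0.286 and 0.435). The last-step reductase gene stood lower after LPS. Dhcr7 had 15.4, 14.97 and 14.01 CPM at 0 h, 11.4, 8.635 and 7.604 at 2 h and 5.38, 4.75 and 4.175 at 4 h. Every later library was below 0 h, and the 4 h decrease was -1.63 ± 0.28 SE (adjusted p = 9.04e-05). Soat1 had 263, 258 and 241 CPM at 0 h, 191, 168 and 136 at 2 h and 156, 159 and 101 at 4 h. It was lower without overlap at both times (-0.62 and -0.88). Abcg1 had 118, 132 and 123.5 CPM at 0 h, 61, 71.95 and 48.8 at 2 h and 89.03, 73.8 and 51.7 at 4 h. It stayed below 0 h at both times (-1.04 ± 0.26 SE and -0.80 ± 0.26 SE), and its 4 h response is compared with that of WT cells as an interaction. Tm7sf2 had 10.1, 10.5 and 11.4 CPM at 0 h, 9.545, 8.74 and 8.95 at 2 h and 7.11, 7.05 and 6.945 at 4 h (-0.60 at 4 h). Ebp had 35.9, 35.8 and 36.4, 30.7, 30.01 and 33.2, and then 23.7, 28.2 and 23.9 CPM (-0.51). Both sterol genes were lower at 4 h without overlap. Mylip had 33.01, 33.35 and 30 CPM at 0 h, 37.9, 30.15 and 25.35 at 2 h and 48.8, 56.7 and 39.7 at 4 h, and was higher at 4 h without overlap (0.59). Abca1 had 190.3, 183 and 166.5 CPM at 0 h, 289, 230.3 and 103 at 2 h and 249, 278 and 92.35 at 4 h. After LPS the cohort 3 libraries lay below all 0 h libraries, and those of cohorts 1 and 2 lay above them. Libraries sharing a cohort number here differed in Xist, so they are not read as 1 course over time. Of the 25 further sterol genes tested, 0 were higher and 3 lower at each time. The shares of all genes were 11.3% and 9.41% at 2 h, and 14.4% and 11.5% at 4 h. The rises of Idi1 and Hsd17b7 at 4 h lost the call when any 1 of the 6 libraries was left out, that of Mylip for any but the 4 h library of cohort 3, and the fall of Abcg1 for 4 of them (both of cohort 2 and both of cohort 3), and 5 or 6 members then passed. At 2 h Soat1 and Srebf2 lost it without the 0 h or the 2 h library of cohort 2 or 3, Soat1 also without the 0 h library of cohort 1, and Srebf2 without the 2 h library of cohort 1. With library totals the splits were 1 higher and 7 lower at both times.

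The difference between a knockout's response and the WT response was tested as an interaction, in which all comparisons share the WT libraries. At 4 h the difference, labelled TrifKO minus WT, was called negative for 3 members and positive for 0, against 9.3% and 8.99% of all genes. These counts are near the share of all genes for the negative side, and nothing particular to the members is read from them. Ch25h, at 45.01, 63.6 and 168.5 CPM in WT and 25.25, 21.2 and 6.86 in cells labelled TrifKO at 4 h, differed in its rise by -2.90 ± 0.83 SE on the log2 scale (adjusted p = 0.0141). Npc2 rose in WT cells but went from 678, 626 and 617 CPM at 0 h to 551, 623 and 462 at 4 h in cells labelled TrifKO, a difference of -1.13 ± 0.24 SE (adjusted p = 0.00107). Abcg1 differed by -1.10 ± 0.32 SE (adjusted p = 0.0153), with WT libraries overlapping their 0 h level at 4 h and libraries labelled TrifKO below theirs. Against the WT libraries of the same number set alone, 4 members passed, these 3 and Mvd. Idi1 (-0.76, 95% interval -1.725 to 0.21) and Hmgcs1 (-0.58, -1.44 to 0.28) did not pass. Without the 4 h library of cohort 3, which is the 1 at that time with Ticam1 nearly lost, Npc2 alone passed (-1.02), and Ch25h (-2.51, adjusted p = 0.0533) and Abcg1 (-0.91, adjusted p = 0.0669) did not. With library totals 4 members were higher and 2 lower, Npc2 (-0.71) and Ch25h (-2.48) passed, and Abcg1 (-0.68) did not. At 2 h no member passed for cells labelled TrifKO (edgeR, 0 of 32, 1 at an unadjusted p below 0.05, 0 by DESeq2), against 1.38% of all genes. That member was Ch25h (-1.98, interval -3.68 to -0.28, adjusted p = 0.513). Of all genes, 1057 passed at the unadjusted threshold.

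For MyD88KO against WT, edgeR called 0 of 32 members at 2 h (2 at an unadjusted p below 0.05, 0 by DESeq2), against 0.442% of all genes. At 4 h it called 0 of 32 (2 at an unadjusted p below 0.05, 0 by DESeq2), against 6.86%. At the unadjusted threshold, 1288 of all 14475 genes passed at 2 h and 2969 at 4 h. The 4 h difference in Ch25h was -1.49 (interval -3.17 to 0.18, adjusted p = 0.309), and that in Dhcr7 was 0.97 ± 0.34 SE (interval 0.28 to 1.66, adjusted p = 0.081). The interval of Hmgcs1 ran from -0.76 to 0.95 at 4 h, so a missed threshold here does not show that the genotypes responded alike. Against the WT libraries of the MyD88KO cells' own set alone, 0 members passed at either time. With set and cohort as a block, 5 members passed at 4 h, namely Ch25h (-1.43), Pmvk (-0.67), Dhcr7 (0.98), Mvd (0.52) and Tm7sf2 (0.43). Without the WT 4 h library numbered 4 or 14, or the WT 0 h library numbered 35, Dhcr7 passed, and without the WT 4 h library numbered 8 Tm7sf2 passed. With library totals 3 members were higher at 4 h.

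**Figure D3:**
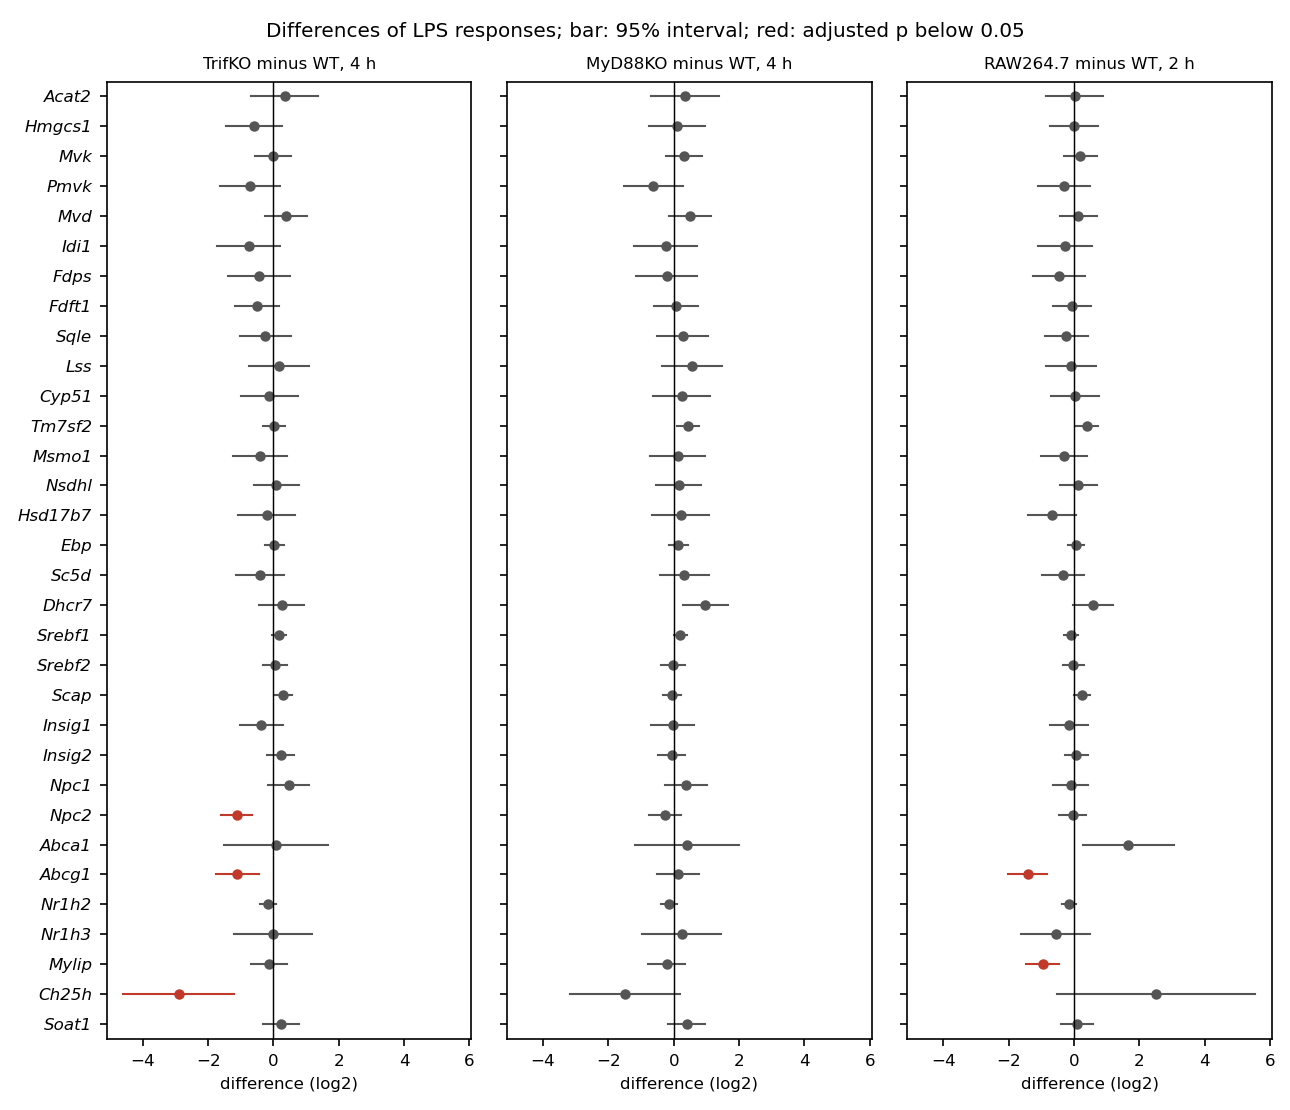
Differences between LPS responses (log2 scale, points with 95% intervals, red where the adjusted p was below 0.05) for each member: labelled TrifKO minus WT at 4 h, MyD88KO minus WT at 4 h, and RAW264.7 control guide minus WT BMDCs at 2 h. Ch25h, Npc2 and Abcg1 are red in the TrifKO panel, none is red in the MyD88 panel, and Abcg1 and Mylip are red in the RAW264.7 panel.

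In control-guide RAW264.7 cells, 2 h of LPS raised the exporter gene Abca1 and 10 of the 18 synthesis genes, and lowered Abcg1. In all 15 members were higher and 7 lower, against 26.3% and 25.3% of all 13078 genes tested, and the members' median was 0.15 beside -0.001 over all genes. Of the 7 mevalonate genes 3 were higher and 0 lower, and of the 11 genes from squalene on 7 were higher and 0 lower. Hmgcs1 had 54.8, 51.5 and 55.6 CPM at 0 h and 105, 93.1 and 111 at 2 h (0.93 ± 0.09 SE, adjusted p = 1.34e-07). Cyp51 had 74.8, 70.5 and 74.9 CPM at 0 h and 137, 133 and 147 at 2 h (0.92 ± 0.06 SE), and Idi1 17.7, 17.4 and 19.6 and 32.2, 30.7 and 36.6 (0.87 ± 0.11 SE). Insig1 had 26.8, 27.85 and 28.5 CPM at 0 h and 46.6, 47.55 and 51.1 at 2 h (0.81 ± 0.115 SE). None of these 4 groups overlapped, and the replicates lay close together. Sqle had 88.04, 86.5 and 84.8 CPM at 0 h and 106, 111 and 104 at 2 h (0.31), and Srebf2 233, 229 and 239 and 296.5, 296.3 and 332 (0.40), again without overlap. Hsd17b7 (0.54), Fdft1 (0.45), Msmo1 (0.38), Sc5d (0.275), Fdps (0.25), Npc2 (0.22) and Nsdhl (0.19) rose by smaller amounts.

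Abca1 had 22.7, 18.7 and 22.96 CPM at 0 h and 78.3, 78.8 and 95.7 at 2 h, a 3.925-fold rise (adjusted p = 1.08e-08). Abcg1 had 149, 145 and 154 CPM at 0 h and 26.8, 29.35 and 31.7 at 2 h, and was at 0.1965 of its 0 h level (adjusted p = 6.15e-11). The 2 exporter genes thus moved in opposite directions with no overlap. Mylip, another LXR target, had 30.5, 30.5 and 38.1 CPM at 0 h and 19.3, 18.2 and 19.7 at 2 h (-0.79 ± 0.11 SE), and Npc1 98.1, 104 and 114 and 64.35, 59.5 and 66 (-0.73 ± 0.07 SE), both lower without overlap. Nr1h3 had 10.6, 9.275 and 14.7 CPM at 0 h and 5.82, 7.71 and 9.95 at 2 h, lower with overlap (-0.55, adjusted p = 0.027), and Soat1 (-0.28), Insig2 (-0.23) and Srebf1 (-0.22) were slightly lower. Srebf1 had 116, 118.5 and 113 CPM at 0 h and 95.99, 105 and 97.5 at 2 h. Dhcr7 had 22.65, 21.1 and 25.6 CPM at 0 h and 18.35, 16.2 and 20.1 at 2 h, and its change of -0.34 ± 0.16 SE did not pass (adjusted p = 0.0808). Ch25h was at 0, 0 and 4 counts at 0 h and at 145, 186 and 194 counts at 2 h, or 3.32, 3.49 and 3.685 CPM, so it rose from the limit of detection and no fold is given. Of 24 further sterol genes tested in the same libraries, 4 were higher and 9 lower, against 26.3% and 25.3% of all genes. The calls of Insig2, Srebf1, Nr1h3 and Nsdhl were lost in turn when single libraries were left out, 2 or 3 of them for each of the 6 libraries. With library totals the member split was 10 higher and 11 lower.

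The 2 h responses of control-guide RAW264.7 cells and WT BMDCs were compared in 1 joint fit over 15148 genes. The difference, RAW264.7 minus WT, was called positive for 0 members and negative for 2, against 10.9% and 8.53% of all genes. In the separate fits Abcg1 fell in RAW264.7 cells (-2.35) and in WT BMDCs (-0.94), and Mylip passed as lower in RAW264.7 cells only (-0.79). The response of Abcg1 differed by -1.42 ± 0.29 SE on the log2 scale (adjusted p = 0.000358), and that of Mylip by -0.96 ± 0.25 SE (adjusted p = 0.00414). For Abca1 the difference of 1.67 ± 0.69 SE (95% interval 0.28 to 3.06) did not pass (adjusted p = 0.0853). Hmgcs1 differed by -0.01 with an interval of -0.75 to 0.72. Strain, cell type, guide vector and experiment cannot be told apart here. With library totals 3 members were higher and 2 lower.

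Abca1 was higher in RAW264.7 cells with guide 2 than with the control guide, and with guide 1 no difference was called. At 0 h Abca1 had 22.7, 18.7 and 22.96 CPM with the control guide, 22.6, 17.6 and 18.9 with guide 1 and 55.3, 40.9 and 35.5 with guide 2. At 2 h it had 78.3, 78.8 and 95.7, 73.4, 74.1 and 96.5 and 166, 139.9 and 163 CPM. All guide 2 libraries exceeded all others of the same time. Guide 2 was 2.05-fold above the control guide at 0 h (adjusted p = 0.000689) and 1.855-fold at 2 h (adjusted p = 0.0018), whereas guide 1 differed by -0.13 (interval -0.46 to 0.20) and -0.05 (-0.36 to 0.26) on the log2 scale. Guide 2 and guide 1 were compared with the same control libraries and their difference was not tested. Abca1 was the 1 member called for guide 2 at 0 h, higher, with 0 lower, against 2.58% and 1.94% of all genes. Insig1 and Mylip passed as well without guide 2 library 3, and Mylip and Soat1 without control library 3. At 2 h guide 2 had 4 members higher and 0 lower, against 3.54% and 2.42%. The other 3 were Hsd17b7 (64.55, 58.1 and 52.3 CPM against 46.55, 48.65 and 49.4 for the control guide, 0.27), Npc2 (419, 437 and 374 against 332, 337 and 366, 0.25) and Sqle (136, 122.5 and 114 against 106, 111 and 104, 0.215). Their groups did not overlap, but these 3 calls were lost without guide 2 library 1 or 2, or control library 1 or 2, and that of Sqle also without control library 3. Guide 1 had 0 members called at 0 h (edgeR, 7 at an unadjusted p below 0.05, 0 by DESeq2), against 2.24% of all genes. At 2 h guide 1 had 0 members called (edgeR, 5 at an unadjusted p below 0.05, 0 by DESeq2), against 3.08%. Srebf2 passed at 2 h without the control library of cohort 3. At the unadjusted threshold, 1740 of all 13078 genes passed for guide 1 at 0 h and 2023 at 2 h.

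**Figure D4:**
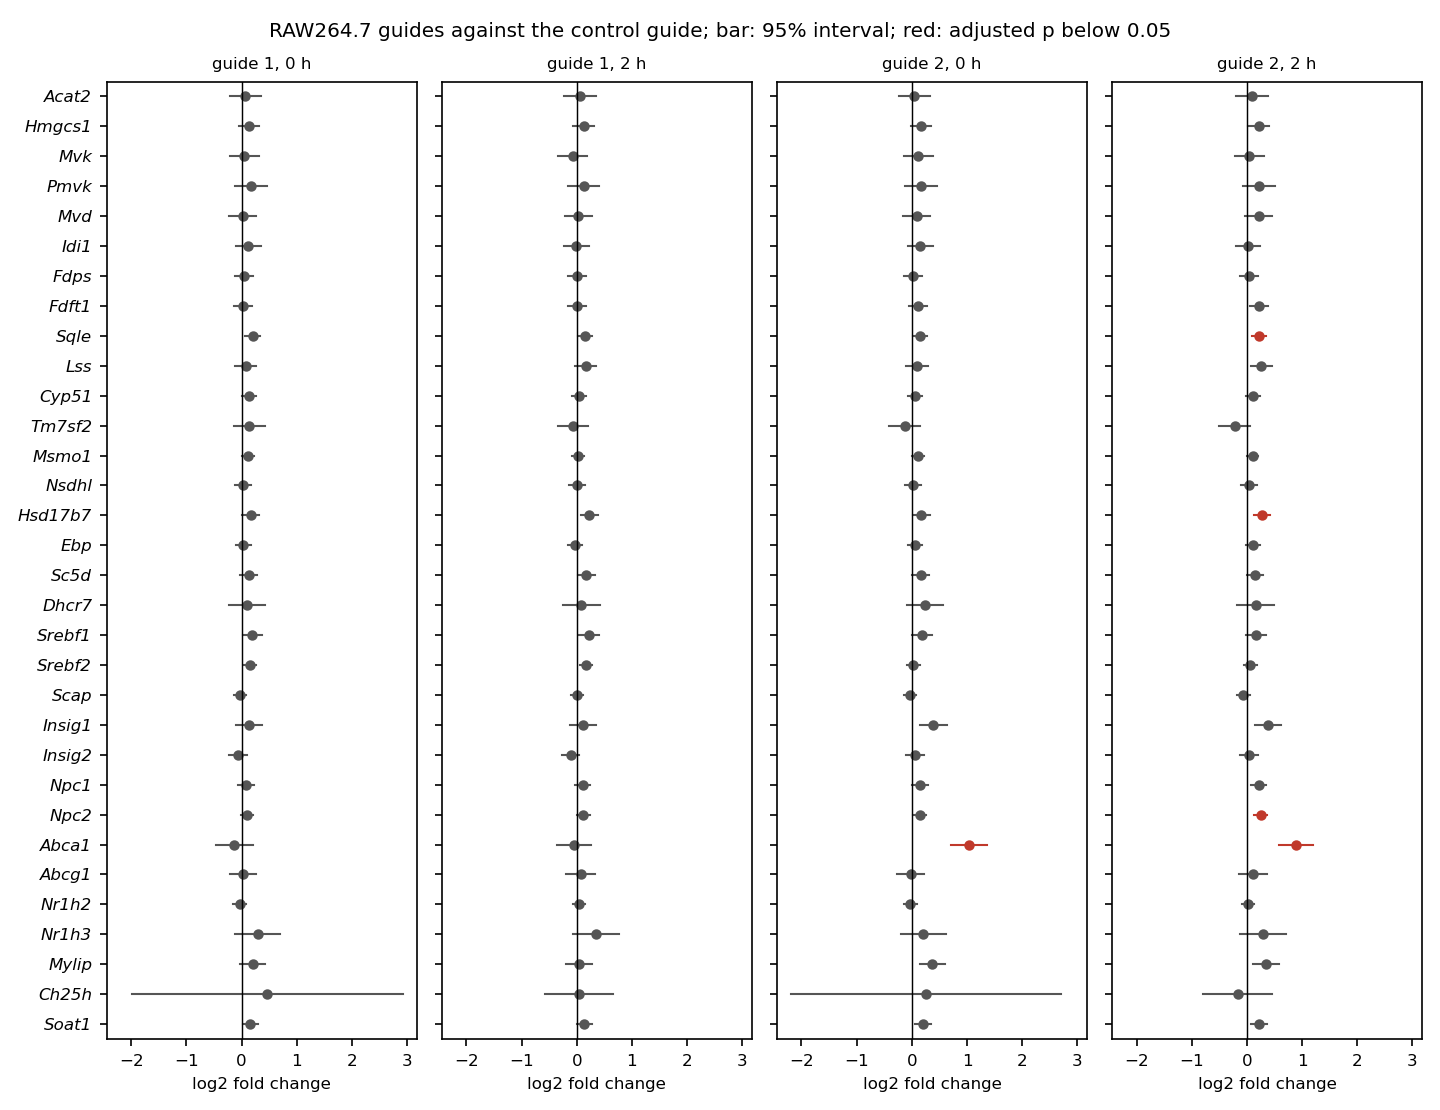
Log2 fold change of each member against the control guide (points with 95% intervals, red where the adjusted p was below 0.05) for guides 1 and 2 at 0 and 2 h. Abca1 is red for guide 2 at both times and close to 0 for guide 1.

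Before LPS, no member passed between genotypes in the edgeR fits without a replicate block, which does not show equal levels. MyD88KO against WT at 0 h gave 0 of 32 (0 at an unadjusted p below 0.05, 0 by DESeq2), against 0.0622% of all genes called. Cells labelled TrifKO against WT gave 0 of 32 (1 at an unadjusted p below 0.05, 0 by DESeq2), against 0%. At the unadjusted threshold 808 and 515 of all 14475 genes passed. In the experiment on Suv39h1 and the interferon receptor, 4 comparisons gave 0 of 32 each by edgeR and by DESeq2. Suv39h1KO against WT had 1 member at an unadjusted p below 0.05, against 0.209% of all genes called, and IfnarKO against WT had 0, against 0.125%. The double knockout had 5 against IfnarKO, with 0.222% of all genes called, and 0 against Suv39h1KO, with 0.16%. These shares use the adjusted p. At an unadjusted p below 0.05, 632, 288, 842 and 690 of all 14386 genes passed in the 4 comparisons, in the order given. Each of the 4 groups served in 2 of these comparisons, which thus share libraries.

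The 5 members at an unadjusted p below 0.05 between double knockout and IfnarKO cells were Hmgcs1, Sqle, Cyp51, Msmo1 and Insig1, all higher in the double knockout. Cyp51 had 85.65, 72.99 and 93.5 CPM in IfnarKO (cohorts 1, 2 and 3) and 117, 102 and 157 in double knockout libraries, a log2 difference of 0.575 ± 0.19 SE (adjusted p = 0.559). Msmo1 had 66.55, 56.35 and 71.8 and 95.01, 72.7 and 99.8 CPM, and Hmgcs1 149, 166 and 194 and 187, 227 and 308.5 (0.51 ± 0.21 SE). Ch25h had 0.469, 0.767 and 1.425 CPM in IfnarKO and 1.78, 2.196 and 2.57 in double knockout libraries (interval of the log2 difference -0.02 to 2.64). In each of these 4 genes every cohort was higher in the double knockout. Cyp51, Msmo1 and Hmgcs1 were picked by their p in this same comparison, so the agreement of its cohorts is no separate support. Cohort numbers paired the libraries of this experiment, and with cohort as a block Cyp51 (0.56, adjusted p = 0.00929), Msmo1 (0.45, adjusted p = 0.0195) and Ch25h (1.44, adjusted p = 0.0473) passed. Under the same block no member passed for Suv39h1KO against WT. The share of all genes under the block is not given, so nothing particular to the members is read from these calls.

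With the interferon receptor intact, Cyp51 had 105, 81.95 and 114 CPM in WT and 146.5, 103 and 140.1 in Suv39h1KO libraries, and Hmgcs1 169, 182 and 229 and 231, 180 and 291 (interval of the log2 difference -0.19 to 0.74). The member at an unadjusted p below 0.05 there was Insig2, with 27.4, 25.03 and 28.2 CPM in WT and 34.7, 33.35 and 32.9 in Suv39h1KO libraries, without overlap (0.325 ± 0.10 SE, adjusted p = 0.497). Abca1 had 87.8, 195 and 138 CPM in WT, 66.7, 96.8 and 125 in Suv39h1KO, 109, 166 and 240.4 in IfnarKO and 88.4, 119 and 125 in double knockout libraries. It was lower in every cohort after loss of Suv39h1, and the intervals of the log2 difference ran from -1.28 to 0.18 and, without the interferon receptor, from -1.36 to 0.10. The median over the 32 members was 0.14 for Suv39h1KO against WT and 0.26 for double knockout against IfnarKO, beside 0.008 over all genes in both.

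**Figure D5:**
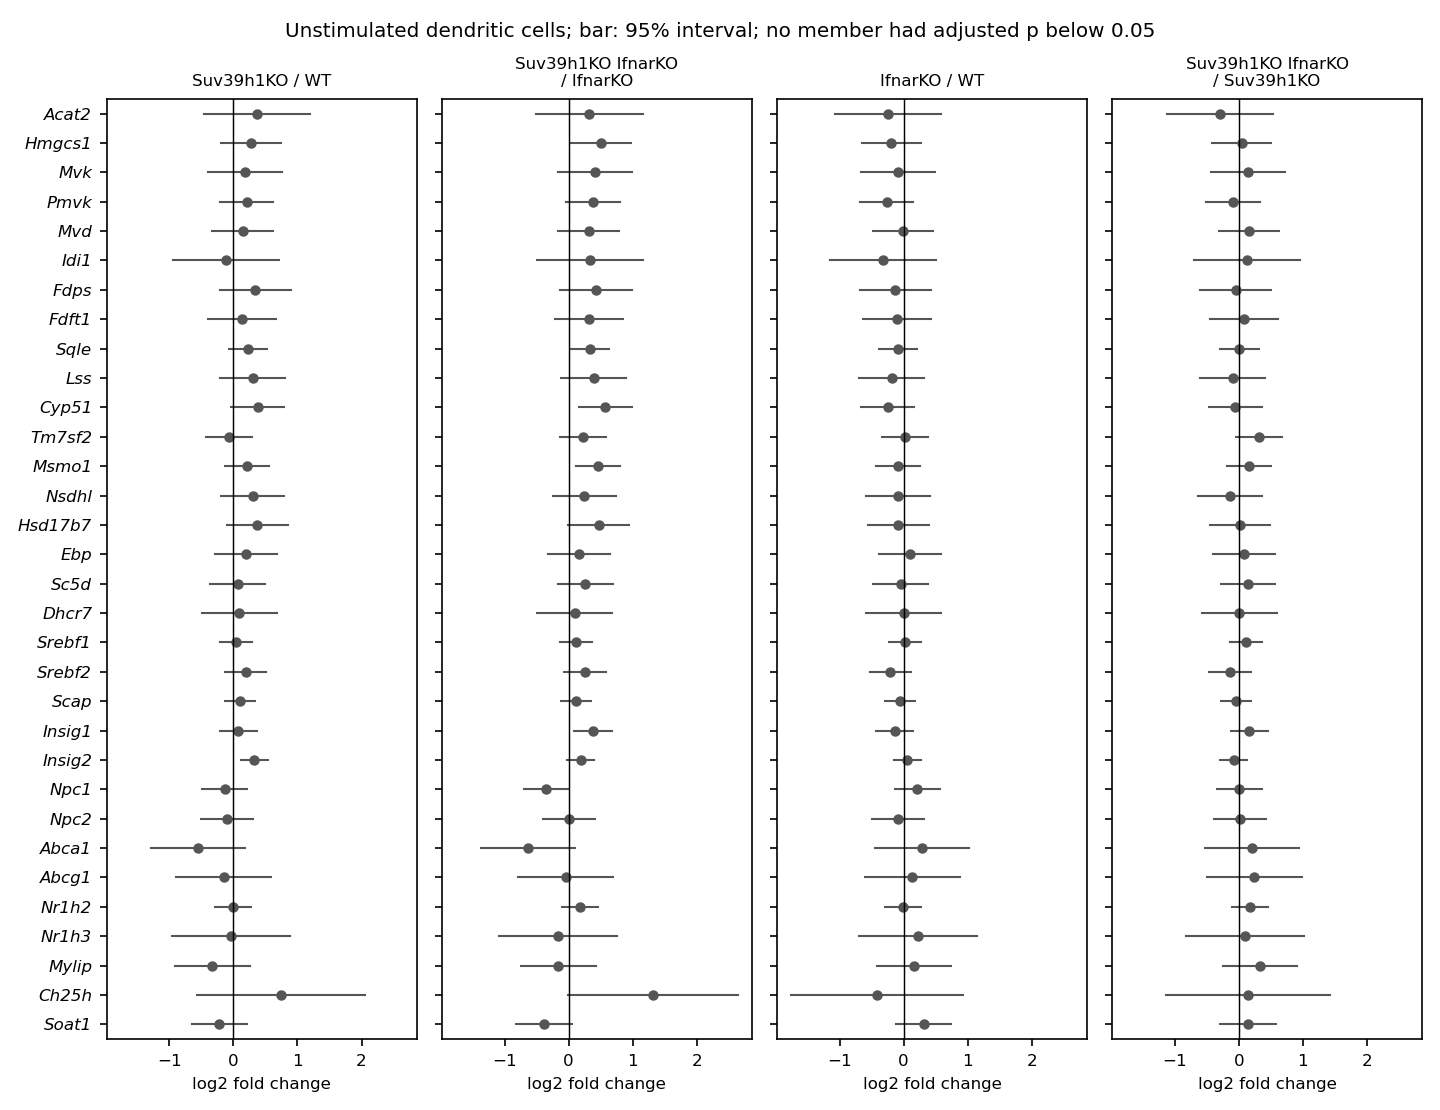
Log2 difference of each member (points with 95% intervals) in 4 comparisons of unstimulated BMDCs that lack Suv39h1, the interferon receptor or both. No member had an adjusted p below 0.05 in these fits, which had no replicate block. Of the 32 members, 26 lie above 0 for the double knockout against IfnarKO and 22 for Suv39h1KO against WT. For the double knockout against Suv39h1KO 23 do, and for IfnarKO against WT 11.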

How the data were processed

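PolyA RNA was sequenced from 65 libraries made, per the labels' protocols, with a TruSeq stranded kit. STAR, HOMER, DESeq2 and the build mm10 are named in the submitters' processing notes, and their versions and roles are not given in the sources used here. The authors deposited raw read counts per gene symbol, and 2824 of 23755 symbols have 0 counts in every library. Whether reads were counted by strand is not given.

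Each experiment was fitted separately with edgeR 4.0.16 in R 4.3.3 (filterByExpr, TMM, quasi-likelihood F test, all its groups in the fit), leaving 14386, 14475 and 13078 genes. RAW264.7 cells and BMDCs were compared in a joint fit of 15148 genes. P-values were adjusted by Benjamini-Hochberg over all genes tested, with a threshold of 0.05. SEs follow from the fold change and the F statistic, and 95% intervals use edgeR's total degrees of freedom. CPM use TMM-scaled library sizes and are comparable for 1 gene across libraries of an experiment, not between genes. In total 23 comparisons were made. The fits were tested on simulated data. Totals of at least 36.9 M counts per library leave replicate spread, not depth, as the main error for members other than Ch25h.

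The members and lists were chosen with earlier results of these data known. Values per library are given for up to 4 called rises and 4 called falls with the largest change in each LPS response, up to 6 in other comparisons, and 10 genes fixed by name (Ch25h, Abca1, Abcg1, Srebf1, Srebf2, Insig1, Hmgcs1, Sqle, Idi1, Dhcr7). The design text gives 3 biological replicates per condition. Whether they were separate mice or cultures is not stated, so p-values measure the spread between libraries. Squared count differences over counting noise, averaged per gene, were taken for pairs within a group. Cohorts 1 and 2 of the WT set numbered 33 to 50 gave 10.5 to 16.9, and other WT pairs of the LPS experiment 39.1 to 388.3. Libraries labelled TrifKO gave 6.53 to 21.1 at 0 h. Later they gave 25.58 and 25.65 between cohorts 1 and 2, and 194 to 253 with cohort 3. Whether such close libraries are separate replicates was not tested, so group sizes may overstate replication. Same-numbered libraries deviated together among unstimulated genotypes (18 pairs, every correlation at least 0.268), among MyD88KO times (9 pairs, at least 0.484) and among WT times of the set numbered 33 to 50 (9 pairs, at least 0.315). Results with a replicate block are therefore given there, for WT cells only for 4 h against 2 h. The WT values at 2 and 4 h against 0 h come from fits without a block. In WT libraries of the set numbered 1 to 30 (lowest 0.024), libraries labelled TrifKO (lowest -0.264) and RAW264.7 libraries (lowest 0.003) they did not do so clearly. Alternatives were DESeq2 1.42.0, library totals without TMM, no filter, replicate blocks, only the groups compared, the library sets, summed WT libraries and each library left out. Member counts under an alternative stand without the share of all genes in that fit, and nothing particular to the members is read from them.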

Additional observations from a re-analysis of the deposited data

Results flagged for a closer look

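Libraries that stood far from the rest of their WT group were looked for in 96 tests (32 members in 3 WT groups of 5 or 6 libraries), where chance alone would mark about 1 in 20, and 11 were found in 9 members and 5 libraries. In the cohort 3 library numbered 14 at 4 h, Hmgcs1 was at 672 CPM (others 183.8 to 364), Idi1 at 495 (others 183 to 221) and Fdft1 at 147 (others 55.7 to 85.8). In the cohort 3 library numbered 13 at 2 h, Pmvk was at 101 CPM (others 46.8 to 59.05), Idi1 at 248.7 (others 113 to 148), Fdps at 168 (others 59.55 to 89.8) and Lss at 34.8 (others 12.9 to 17.9). The cohort 3 library numbered 11 at 0 h had Idi1 at 99.4 CPM (others 57.9 to 72.9). In the cohort 3 library numbered 35 at 0 h, Msmo1 was low at 27.8 CPM (others 51.1 to 63.6) and Sc5d at 27.3 (others 39 to 45.3). Nr1h2 was at 115 CPM in the cohort 3 library numbered 38 at 2 h (others 92.9 to 94.4). All 5 libraries carry the cohort number 3. Cohort 3 was also the WT cohort with Xist at 0 to 3 counts, and the part of this in the flagged values was not tested.

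Responses that differed between genotypes or cell types by the test of the difference were those of Npc2 (-1.13), Abcg1 (-1.10) and Ch25h (-2.90) for cells labelled TrifKO minus WT at 4 h. Those of Abcg1 (-1.42) and Mylip (-0.96) differed for RAW264.7 cells minus WT BMDCs at 2 h.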

How the results depend on the processing

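TrifKO names the label in what follows. Scaling by library totals turned directions. At 4 h in WT cells Fdft1 (-0.074), Sqle (-0.026), Cyp51 (-0.067), Msmo1 (-0.031) and Nr1h2 (-0.38) reversed, as did Nr1h2 (-0.082) from 2 to 4 h. The members called became 8 for TrifKO at 2 h, 3 for MyD88KO minus WT and 6 for TrifKO minus WT at 4 h, and 5 for RAW264.7 minus WT. With set and cohort as a replicate block, 17 were called for WT 4 h against 2 h, 14 and 19 for MyD88KO at 2 and 4 h, 13 and 15 for TrifKO at 2 and 4 h, 5 for MyD88KO minus WT and 6 for TrifKO minus WT at 4 h, and 1 for TrifKO minus WT at 2 h. With the cohort number alone as a block, 9 were called for TrifKO at 2 h, 1 for TrifKO minus WT at 2 h and 3 for double knockout against IfnarKO. That block gave 1 for guide 1 and 7 for guide 2 at 0 h, and 5 and 13 at 2 h. It moved no other count of members by over 1.5 times. With only the groups compared in the fit, MyD88KO at 4 h had 7, TrifKO 16 and 14 at 2 and 4 h, guide 1 at 0 h 2, and guide 2 had 2 at 0 h and 1 at 2 h. WT libraries numbered 1 to 30 alone gave 5 for 4 h against 2 h. Summing the WT libraries of a cohort gave 9 for TrifKO at 2 h and 1 for MyD88KO minus WT at 4 h. Without a filter on low counts, TrifKO at 2 h had 3 and guide 2 at 0 h had 3, and DESeq2 gave 3 and 8 for guide 2 at 0 and 2 h. The causes were not tested. No block and no fit of only the groups compared was made for the joint fit.

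With each library left out in turn, the members called ranged from 12 to 17 (WT 2 h), 20 to 22 (WT 4 h), 9 to 11 (WT 4 h against 2 h), 4 to 10 and 6 to 18 (MyD88KO 2 and 4 h), 3 to 4 and 5 to 6 (TrifKO 2 and 4 h), 0 to 1 (MyD88KO minus WT at 4 h), 1 to 3 (TrifKO minus WT at 4 h) and 19 to 20 (RAW264.7 at 2 h). They ranged from 1 to 3 and 1 to 5 for guide 2 at 0 and 2 h, 0 to 1 for guide 1 at 2 h and 2 to 3 for RAW264.7 minus WT, and stayed at 0 in the other comparisons. Ch25h in RAW264.7 cells at 0 h, at 0 to 4 counts, was at the limit of depth.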
